A study of Mus musculus with 20 samples.

Results

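Glucose enters heart muscle cells through transporters of the SLC2A family, is split by the enzymes of glycolysis and leaves the pathway as pyruvate or lactate. Most steps can be run by several related enzymes, one of which is typical of muscle and another of proliferating or non-muscle tissue. The genes described here are 31 such genes of 29339 in the deposited table: the glucose transporters, the glycolytic enzymes, the enzymes that set fructose 2,6-bisphosphate, fructose bisphosphatase, the glycerol-3-phosphate dehydrogenases and the lactate transporters. They were taken by gene name, and the set was chosen from earlier results of these same counts, in which the comparisons of genotype labels and of library series were already known. The p-values, adjusted over all genes, therefore only describe these genes. Aldoa was listed in 2 rows, and the row with more counts was used, since the other held at most 8 counts in any library. All 31 genes had a row.

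The study sequenced poly-A RNA of hearts from C57BL/6 mice aged 8 weeks, to compare wild type (WT) mice with Tecrl knockout (TECRL-/-, here KO) mice of each sex. With the male label there were 5 WT and 5 KO libraries, and with the female label 3 WT and 7 KO libraries. The knockout was not stated to be limited to a cell type, and all groups shared strain, age and tissue. No treatment was stated. The names of the libraries fell into 2 series, S1 to S12, which gave 3 libraries to each group, and a second one of TKO1 to TKO6 beside WT1 and WT2. All libraries labelled female and WT were of the S series.

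Several libraries went against their labels, and this applies to each comparison below. The targeted gene Tecrl lay between 24.5 and 46.5 FPKM in the 8 libraries labelled WT and between 26.9 and 41.3 FPKM in the 12 labelled KO, so its level did not separate the genotype labels. FPKM is the count divided by the length of the gene and by the library total. Xist, an RNA of the inactive X chromosome, lay between 234 and 452 CPM (counts scaled to the normalized library size) in 10 libraries that had at most 0.128 CPM of Y-linked genes in sum. The other 10 libraries had 148 to 203 CPM of Y-linked genes. By this measure S4 to S6, labelled female KO, and S7 to S9, labelled male WT, made 6 libraries against their sex label. The labels of these 6 libraries give genotype as well as sex, so an exchange of labels between both blocks would also exchange their genotypes, and fold changes that rest on them would not then set KO against WT. The labels were kept as given, and an exchange was not tested. Within the S series every library labelled WT held Xist and every library labelled KO held Y-linked RNA, so that genotype label and sex-linked RNA cannot be told apart there. The markers of cardiomyocytes summed to between 30550 and 47630 CPM in every library, so the labelled tissue's own markers were present. The ventricular cardiomyocyte list was lowest in S7, at 5290 CPM, S11, at 9093 CPM, and S9, at 9930 CPM, against a median of 13960 CPM, and its part in the gene levels of these libraries was not tested. The atrial list summed to 7117 CPM in S7, 5928 CPM in S9, 7426 CPM in S11 and 2116 CPM in S12, against a median of 17.4 CPM over all libraries. White adipocyte genes summed to 749 CPM in S7 and at most 32.0 CPM elsewhere. Total counts ran from 12540002 to 20038593 per library, and mitochondrial genes took 15.3% to 30.4% of them. In whole tissue, fewer cells of a type and less RNA per cell cannot be told apart.

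The 4 genes with the highest median levels were forms typical of muscle or heart. Of the 31 genes, 4 had a median over 500 FPKM, 11 over 100 FPKM, 21 over 10 FPKM and 29 over 1 FPKM. The 4 highest were Ldhb, the lactate dehydrogenase subunit typical of heart, at a median of 899 FPKM (722 to 1029 over the 20 libraries), Aldoa, the muscle aldolase, at 788 FPKM (678 to 918), Eno3, the muscle enolase, at 725 FPKM (610 to 899), and Pgam2, the muscle phosphoglycerate mutase, at 702 FPKM (496 to 989). The ranges of these 4 overlapped, so their order was not firm. Gapdh followed at 492.7 FPKM (460 to 642), with a range that overlapped that of Pgam2 and lay below those of Aldoa and Ldhb. Then came a group between 150.5 and 218 FPKM: Tpi1, Ldha, Pfkm, Pkm and Pgk1. The lowest were Pfkfb4, with a median of 0.76 FPKM, and Aldoc, the brain aldolase, which did not exceed 0.298 FPKM in any library.

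**Figure D1:**
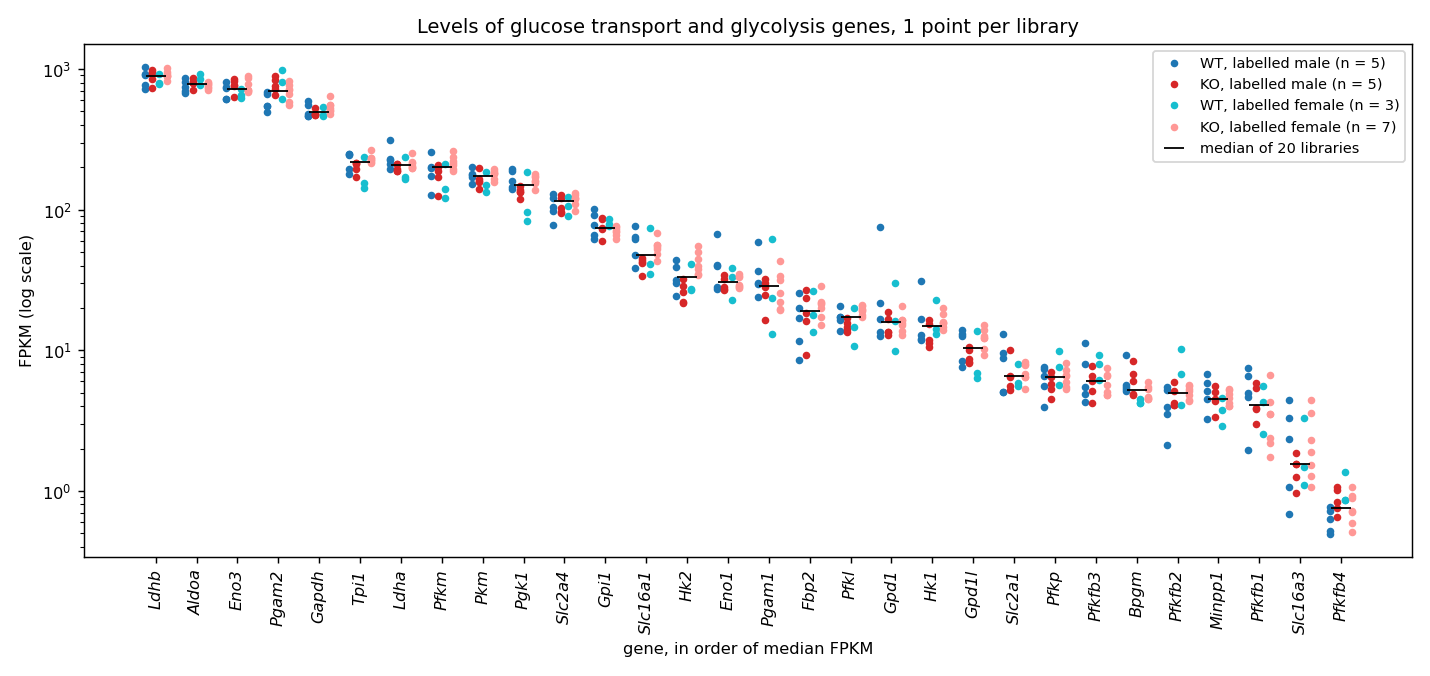
Levels of 30 genes in 20 heart libraries, in FPKM on a log axis, ordered by median; points are libraries, coloured by labelled genotype and sex, and bars are medians. Aldoc, at most 0.298 FPKM, is left out. The 4 highest genes lie between 496 and 1029 FPKM, and at Gpd1 and Hk1 a single WT library (S7) stands above the rest.

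Genes differed in how much they varied between libraries of 1 group. The pooled within-group SD of log2(FPKM + 1) was 0.11 for Aldoa, 0.13 for Gapdh, 0.15 for Ldhb and 0.16 for Eno3. It was 0.60 for Gpd1, which makes glycerol 3-phosphate from a glycolytic intermediate, 0.55 for Pgam1 and 0.53 for Slc16a3. Highest over lowest library was 1.35-fold for Aldoa and 7.67-fold for Gpd1. A few libraries held most extremes. S7 was the highest library for 9 genes (Ldha, Pgk1, Gpi1, Eno1, Gpd1, Hk1, Pfkfb3, Slc16a3 and Aldoc) and the lowest for 4 (Ldhb, Eno3, Fbp2 and Pfkfb2). S2 was the lowest for 9 genes (Tpi1, Ldha, Pfkm, Pkm, Pgk1, Eno1, Pgam1, Pfkl and Gpd1) and also had the highest mitochondrial share, 30.4%. The part of these library features in the gene levels was not tested.

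**Figure D2:**
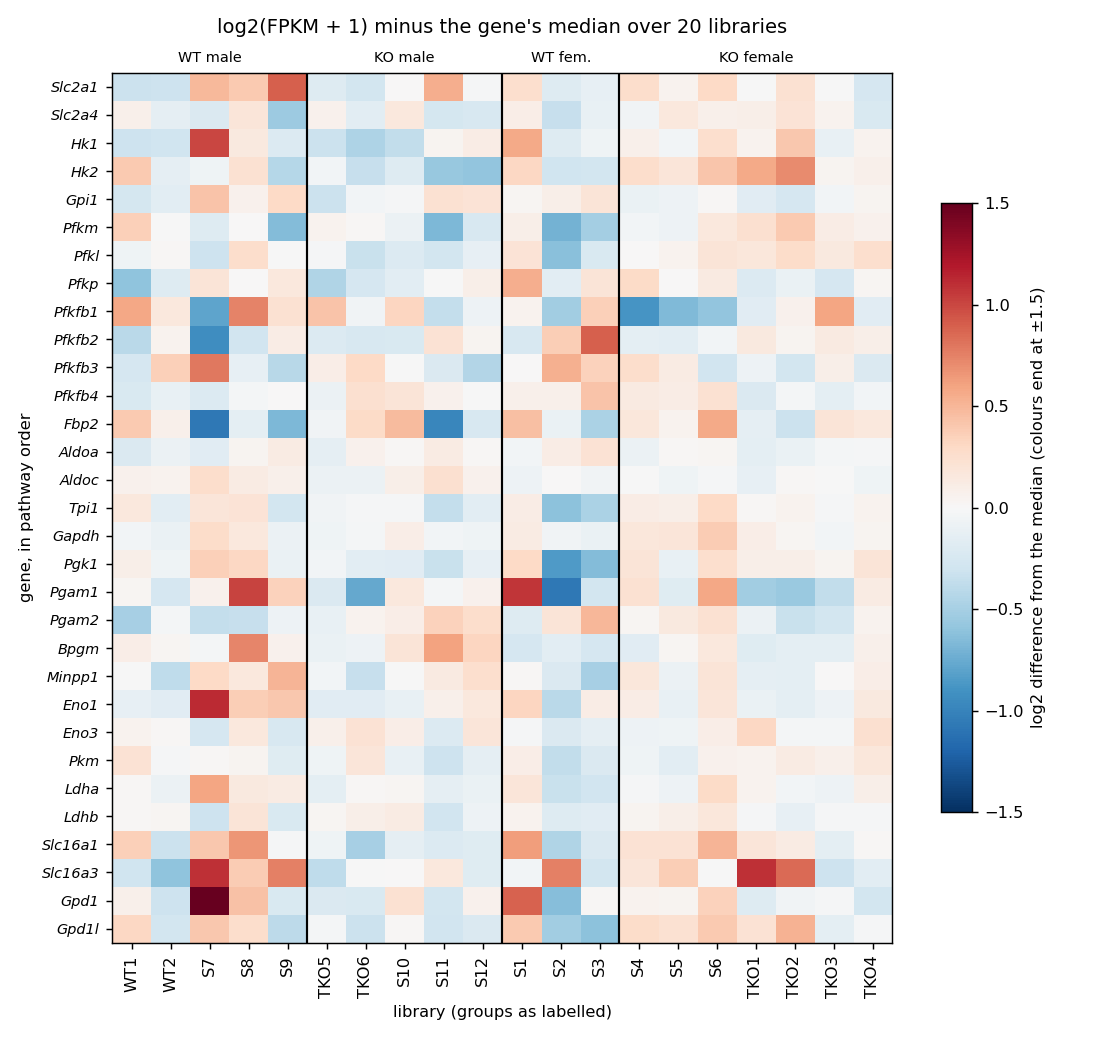
Heat map of 31 genes (rows, pathway order) in 20 libraries (columns, by labelled group): log2(FPKM + 1) minus the gene's median over all libraries, with colours ending at ±1.5. S7 is high for Hk1, Eno1 and Gpd1, and S2 and S3 are low for Pfkm, Tpi1 and Pgk1 while S1, of the same group, is not.

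Of the transcripts of both glucose transporters in the set, most were of Slc2a4 (GLUT4), the insulin-responsive transporter, and fewer of Slc2a1 (GLUT1), the basal one. Slc2a4 had a median of 114 FPKM and Slc2a1 of 6.51 FPKM. Slc2a4 made up a median of 94.6% of their sum, and least in S9, at 85.7%. Slc2a1 was 13.0 FPKM in S9, 9.97 FPKM in S11, 9.55 FPKM in S7 and at most 8.85 FPKM in the other libraries. S9, S11 and S7 were the 3 libraries with the largest sums of atrial markers, and the part of those markers in this was not tested.

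Hexokinases trap glucose in the cell by phosphorylation. Hk2, the insulin-regulated form of muscle, made up a median of 71.2% of hexokinase FPKM and Hk1, the widely expressed form, 28.8%. The share of Hk1 was 49.4% in S7, 42.8% in S12 and at least 21.2% in every library. In the libraries labelled female the Hk1 share was 32.7% to 35.5% in the 3 WT and 23.8% to 30.7% in the 7 KO, so these groups did not overlap, while the ranges in libraries labelled male overlapped (21.2% to 49.4% in WT and 26.8% to 42.8% in KO). Of the 10 steps with several forms, 2 had shares that did not overlap between the female labels, this one and phosphofructokinase, and 0 had such shares between the male labels. These shares were not tested. In CPM, 0 of the 30 genes tested did not overlap between the female labels. The share over all genes with enough counts was taken in FPKM, where 4.53% did not overlap, so these figures are on different scales. Gpi1, the next enzyme, had a median of 74.5 FPKM and ranged from 59.6 to 100.5 FPKM.

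Phosphofructokinase commits sugar to glycolysis. Pfkm, the muscle subunit, took a median of 88.9% of the FPKM of this step, Pfkl, the liver subunit, 7.86% and Pfkp, the platelet subunit, 2.89%. Without division by gene length the medians were 75.4%, 13.5% and 9.89% of the counts. In the libraries labelled female the Pfkm share was 86.3% to 88.1% in WT and 88.4% to 90.7% in KO, and the Pfkp share 4.09% to 4.70% in WT and 2.07% to 3.72% in KO. Pfkm ranged from 122 FPKM in S2 to 263 FPKM in TKO2. The bifunctional PFKFB enzymes, which make and break the phosphofructokinase activator fructose 2,6-bisphosphate, had no such leading form. Pfkfb3 took a median of 36.6% of their FPKM, Pfkfb2, the heart form, 30.5%, Pfkfb1, the liver and muscle form, 24.6% and Pfkfb4 4.88%. The Pfkfb3 share spanned 27.8% in S9 to 71.05% in S7, and the Pfkfb1 share 12.01% in S4 to 42.6% in S8. Fbp2, the muscle fructose bisphosphatase, which runs this step in reverse, ranged from 8.52 FPKM in S7 to 28.7 FPKM in S6, and its 3 lowest libraries were S7, S11 (9.22 FPKM) and S9 (11.6 FPKM), again those with the largest atrial sums.

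In the later steps, Aldoa made up at least 99.96% of aldolase FPKM. Tpi1, triose phosphate isomerase, had a median of 218 FPKM and Gapdh, the oxidising enzyme, 492.7 FPKM. Pgk1, an X-linked kinase that makes ATP, had a median of 150.5 FPKM. Pgam2 took a median of 96.3% of mutase FPKM and Pgam1, the widely expressed form, 3.65%, with Pgam1 at 9.71% in S8, 9.16% in S1 and 1.61% in S2. Eno3 took 96.1% of enolase FPKM, and Eno1, the widely expressed form, was 9.98% in S7 and at most 6.20% elsewhere. Bpgm, which makes the red cell metabolite 2,3-bisphosphoglycerate, was 9.29 FPKM in S8, 8.455 FPKM in S11 and at most 6.73 FPKM elsewhere. S11 and S8 were also the 2 libraries with the highest sums of red blood cell genes, 1789 and 1592 CPM, against a median of 409 CPM, and the part of those cells was not tested. Minpp1, a phosphatase of inositol phosphates that can also act on 2,3-bisphosphoglycerate, lay between 2.89 and 6.83 FPKM.

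Pkm, pyruvate kinase, had a median of 174 FPKM, and the table does not split its M1 and M2 transcripts. Ldhb took 81.6% of lactate dehydrogenase FPKM and Ldha, the form typical of skeletal muscle, 18.4%, with the Ldha share at 30.2% in S7 and at most 22.8% elsewhere. Of the lactate transporters, Slc16a1 (MCT1) took 96.9% and Slc16a3 (MCT4), the form typical of glycolytic fibres, 3.12%. Gpd1 took 60.6% and Gpd1l, its relative, 39.4% of their sum, and the Gpd1 share was 84.4% in S7. The order of these 2 turned without division by gene length, with a median of 47.25% of the counts for Gpd1 and 52.75% for Gpd1l.

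**Figure D3:**
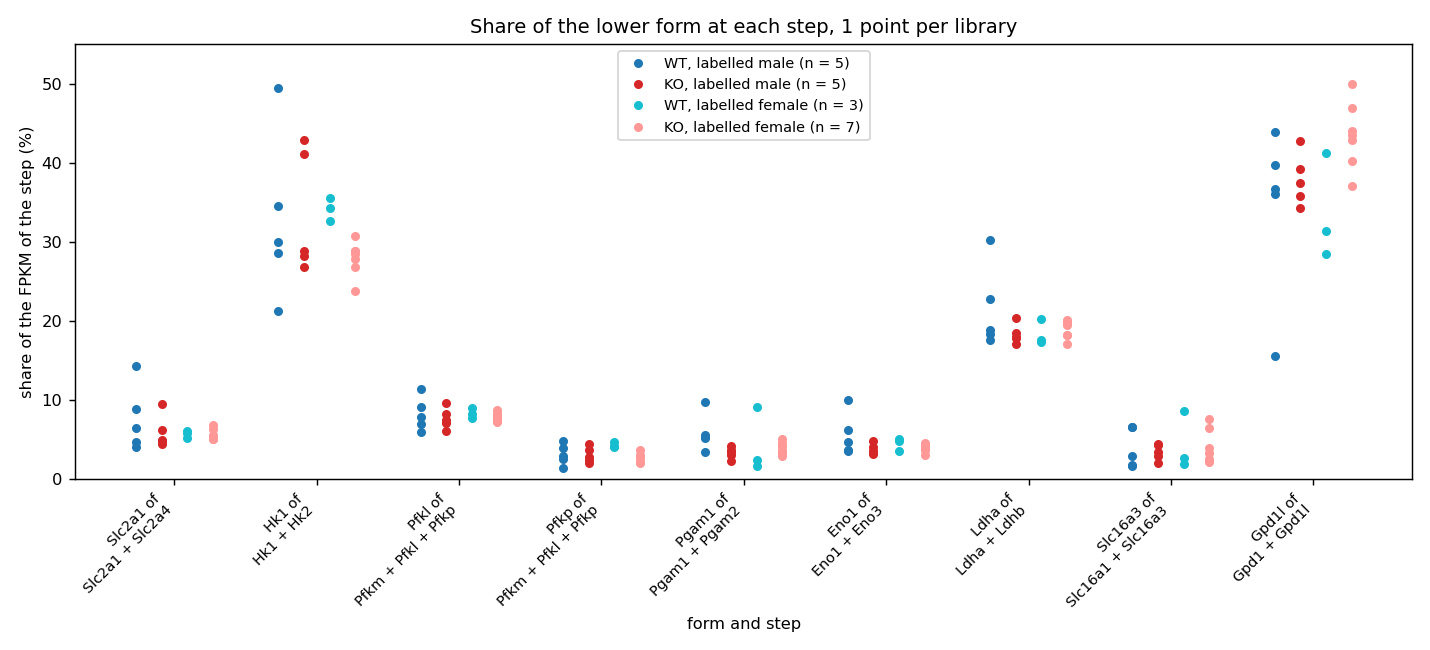
Share of the lower form in the FPKM of its step, in percent, 1 point per library, coloured by labelled group. Hk1 reaches 49.4% in 1 male WT library (S7), and the Hk1 shares of the female WT libraries lie above those of the female KO libraries.

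The mutase and kinase genes were printed because their levels went apart between libraries of 1 label: among the 3 libraries labelled female WT, Pgam1 and Pgk1 were higher in S1 than in S2 and S3, and Pgam2 was lower. Promoter windows of RefSeq (GRCm38.p6, 250 bases before to 50 after the listed start) were read on the gene's strand, and 29 of the 31 genes matched. Capitals mark the letters ACGTG on either strand, the core of sites bound by hypoxia-inducible factors and other E-box factors, CAGCTG, an E-box of muscle regulatory factors (a palindrome, the same on both strands), and a MEF2 motif, looked for on both strands. The Pgam1 window is chr19:41911621-41911920 (plus strand), that of Pgam2 chr11:5803747-5804046 (minus strand) and that of Pgk1 chrX:106186850-106187149 (plus strand).
Pgam1: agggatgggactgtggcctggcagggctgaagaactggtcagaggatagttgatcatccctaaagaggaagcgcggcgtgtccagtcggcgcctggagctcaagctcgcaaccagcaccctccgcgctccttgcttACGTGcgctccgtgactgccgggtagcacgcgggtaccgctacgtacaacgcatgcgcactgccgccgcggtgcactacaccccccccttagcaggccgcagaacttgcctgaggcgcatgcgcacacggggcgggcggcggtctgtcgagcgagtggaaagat
Pgam2: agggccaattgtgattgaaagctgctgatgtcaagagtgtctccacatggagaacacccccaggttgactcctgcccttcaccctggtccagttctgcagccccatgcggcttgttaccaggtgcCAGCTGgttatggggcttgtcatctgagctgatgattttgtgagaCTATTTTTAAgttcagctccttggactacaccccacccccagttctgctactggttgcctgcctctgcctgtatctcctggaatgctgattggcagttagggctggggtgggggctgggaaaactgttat
Pgk1: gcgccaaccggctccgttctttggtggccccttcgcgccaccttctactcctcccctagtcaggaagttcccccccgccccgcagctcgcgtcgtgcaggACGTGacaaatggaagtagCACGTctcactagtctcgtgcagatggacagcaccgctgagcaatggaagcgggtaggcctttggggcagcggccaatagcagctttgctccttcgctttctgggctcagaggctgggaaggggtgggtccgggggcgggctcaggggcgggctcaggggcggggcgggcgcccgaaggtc
The Pgam1 window holds 1 match of ACGTG and none of the others, the Pgk1 window holds 2 of ACGTG, and the Pgam2 window holds a CAGCTG and a MEF2 match and no ACGTG. The letters ACGTG were found in 19.6% of all 32851 windows and in 21 of the 46 windows of these genes, which came from 17 of the 29. CAGCTG was found in 16.3% of all windows and in 9 of the 46, and the MEF2 motif in 3.19% of all windows and in 2 of the 46 (Pfkfb1 and Pgam2). CACGTG, which holds ACGTG, was in 7.15% of all windows and in 7 of the 46. A gene has several windows where it has several starts, so windows of 1 gene are not independent. A match is a description of letters and not a binding site.

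In libraries labelled male, 0 of the genes passed the test between KO and WT. The CPM ranges of all 31 overlapped, and as the share over all genes is not given here, nothing is read from that. Of 31 genes tested, 23 had a negative and 8 a positive log2 fold change (25.8% positive, beside 47.1% of all genes), with a median of -0.16 beside -0.01 over all 14481 genes tested. The largest fitted changes were Gpd1 (-0.75, SE 0.397), Aldoc (-0.69), Slc16a3 (-0.49), Slc16a1 (-0.48) and Pfkfb4 (0.48). By edgeR (quasi-likelihood, p adjusted over all genes by Benjamini and Hochberg), 0 of 31 had an adjusted p under 0.05, as had 0% of all genes tested. DESeq2 also called 0 of the 31, beside 0.0829% of all genes. An unadjusted p under 0.05 was reached by 3 (Pgam2, Eno1 and Slc16a1), beside 4.75% of all genes. At the thresholds of the study (a size of 0.58 or more on the log2 scale, and p under 0.05 before adjustment) 0 of 31 genes passed, beside 2.09% of all genes. As the set was chosen on this contrast, nothing is read from these counts.

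Pgam2 was 496 and 690 FPKM in WT1 and WT2, 548, 550.02 and 663 FPKM in S7, S8 and S9, 649 and 727 FPKM in TKO5 and TKO6, and 753, 893 and 841 FPKM in S10, S11 and S12. The fitted log2 fold change was 0.39 (SE 0.125, n = 5 against 5 libraries, adjusted p = 0.88). The groups overlapped over both series, and the S libraries alone did not. In the S libraries the fold change was 0.53 (SE 0.174) and in the WT/TKO libraries, 2 against 2 and all with Y-linked RNA, 0.20 (SE 0.215). With the summed Y-linked level as covariate it was 0.19 (SE 0.202). Of the male libraries only S7 to S9, all labelled WT, lacked Y-linked RNA. That estimate therefore rests mainly on WT1, WT2, TKO5 and TKO6, as does the one from the WT/TKO libraries.

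Eno1 was 28.0 and 27.1 FPKM in WT1 and WT2, 67.6, 39.7 and 40.7 FPKM in S7, S8 and S9, 26.9 and 27.1 FPKM in TKO5 and TKO6, and 28.1, 32.1 and 34.2 FPKM in S10, S11 and S12. The 3 WT libraries of the S series lay above every other male library, and WT1 and WT2 lay among the KO libraries. The log2 fold change was -0.61 (SE 0.212) in the S libraries and -0.06 (SE 0.196) in the WT/TKO libraries. Slc16a1, the lactate transporter, was -0.53 (SE 0.235) in the S libraries and -0.38 (SE 0.264) in the others. Slc16a3 was 4.46, 2.325 and 3.31 FPKM in S7, S8 and S9 and 1.56, 1.85 and 1.25 FPKM in S10 to S12, but 1.07 and 0.682 FPKM in WT1 and WT2 and 0.960 and 1.54 FPKM in TKO5 and TKO6. Its direction turned between the series, from -1.06 (SE 0.259) in the S libraries to 0.47 (SE 0.339) in the WT/TKO libraries, and it was 0.46 (SE 0.378) with the Y-linked level as covariate. In the S libraries 6 of the 31 genes did not overlap between the labels: Eno1, Ldha, Pgk1, Slc16a1 and Slc16a3 were lower and Pgam2 higher in KO. Of all 14120 genes with enough counts there, 8.36% did not overlap.

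Gpd1 was 75.5 FPKM in S7 and between 12.6 and 21.8 FPKM in the other 4 male WT libraries, and between 12.9 and 18.8 FPKM in the 5 male KO libraries. Without S7 its log2 fold change went from -0.75 to -0.15. Hk1 was 30.9 FPKM in S7 and 11.9 to 16.7 FPKM in the other male WT libraries, and without S7 its change went from -0.33 to -0.09. S7 was also the library with 749 CPM of white adipocyte genes and 308 CPM of mesothelial genes, against medians of 2.28 and 23.9 CPM over all libraries. The part of those cells in Gpd1 and Hk1 was not tested.

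**Figure D4:**
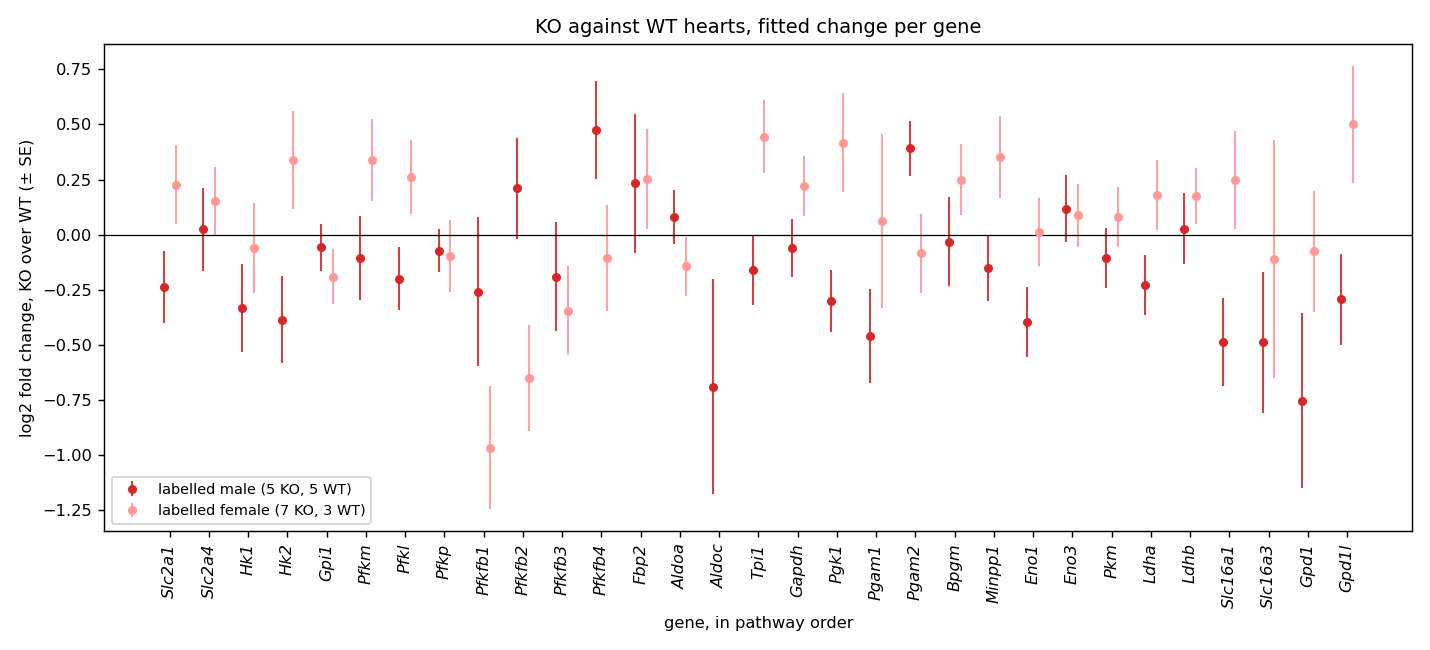
Fitted log2 fold change of KO over WT (edgeR) for each gene in pathway order, with bars of 1 standard error, for libraries labelled male and female. In the male libraries 23 of 31 points lie below 0, and in the female libraries 19 of 30 lie above 0. Over all genes, 47.1% of changes were positive in the male and 47.6% in the female libraries. Aldoc was tested in the male libraries only.

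In libraries labelled female, more of the genes had a positive than a negative fold change, and Pfkfb1 and Pfkfb2 had the largest fitted values. Of 30 genes tested (Aldoc did not pass the count filter), 19 had a positive and 11 a negative log2 fold change (63.3% positive, beside 47.6% of all genes). Their median was 0.12 beside -0.02 over all genes tested. The median was 0.03 without S6, a KO library, and 0.23 without S1, a WT library. All WT libraries were of the S series, so with the series as covariate the fold changes rest on S4 to S6 against S1 to S3. The largest fitted changes were Pfkfb1 (-0.97, SE 0.277, adjusted p = 0.154), Pfkfb2 (-0.65, SE 0.240, adjusted p = 0.213), Gpd1l (0.50), Tpi1 (0.44, SE 0.166, adjusted p = 0.215) and Pgk1 (0.42), all by edgeR. Pfkfb2 was -0.34 and Gpd1l 0.29 without S3, and Pgk1 was 0.25 without S2. edgeR called 0 of 30 genes at an adjusted p under 0.05, beside 0.0551% of all genes, and 3 had an unadjusted p under 0.05, beside 17.9% of all genes. DESeq2 called 1 of the 30, Pfkfb1, beside 2.64% of all genes. At the thresholds of the study 2 of 30 genes passed (Pfkfb1 and Pfkfb2), beside 9.99% of all genes.

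Pfkfb1 was 4.29, 2.55 and 5.53 FPKM in S1, S2 and S3, 1.75, 2.21 and 2.37 FPKM in S4, S5 and S6, and 3.52, 4.31, 6.65 and 3.52 FPKM in TKO1 to TKO4. The 3 S libraries labelled KO were below every WT library, TKO1, TKO2 and TKO4 were among the WT libraries, and TKO3 was above them. Without the series covariate its log2 fold change was -0.24. Pfkfb1 lies on the X chromosome (chrX:150588229-150643878, plus strand, GRCm38), S1 to S3 held Xist and S4 to S6 held Y-linked RNA, and the part of this was not tested. Among the S libraries labelled female 3 of the 31 genes did not overlap between the labels (Pfkfb1 and Gpi1 lower, Gapdh higher in KO), beside 16% of all genes.

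The 3 libraries labelled female WT differed among themselves. Pgam1 was 61.7 FPKM in S1, 13.2 in S2 and 23.7 in S3. Pgk1 was 186 FPKM in S1, 83.1 in S2 and 95.9 in S3. Tpi1 was 236 FPKM in S1, 142 in S2 and 156 in S3. In the other direction, Pgam2 was 612 FPKM in S1, 803 in S2 and 989 in S3, and Aldoa was 766, 850.5 and 918 FPKM. In S1 against the other 2 libraries Pgam1 was higher and Pgam2 lower, and from S2 to S3 both were higher. Mitochondrial genes took 19.3% of the counts in S1, 30.4% in S2 and 25.6% in S3, and red blood cell genes summed to 238, 1001 and 803 CPM, and their part in these differences was not tested.

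**Figure D5:**
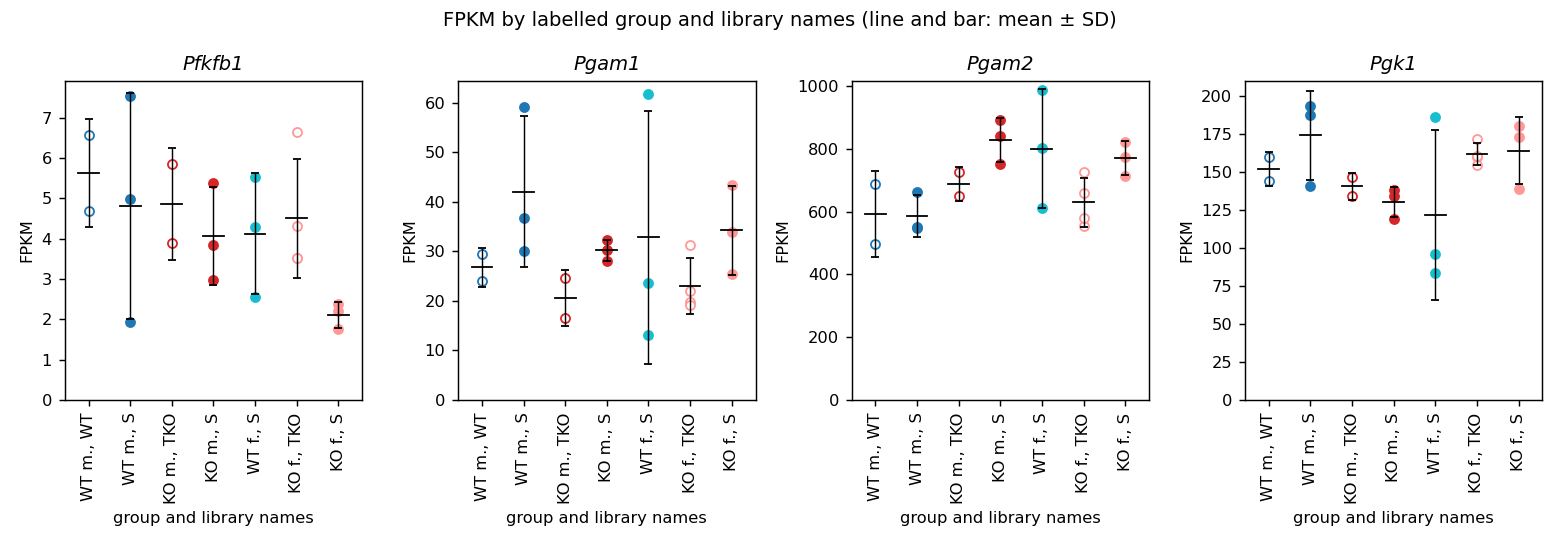
FPKM of Pfkfb1, Pgam1, Pgam2 and Pgk1 by labelled genotype, labelled sex (m., male, f., female) and library series (filled points S, open points WT or TKO), with the mean and SD as lines. Pgam1 and Pgk1 are high in S1 and low in the other 2 female WT libraries, and Pfkfb1 is lower in the 3 female KO libraries of the S series than in the other female libraries.

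With S1 left out, edgeR called 8 of 30 genes in the libraries labelled female, beside 16.8% of all genes. Tpi1 (0.66), Pgk1 (0.82), Pgam1 (0.86), Pfkm (0.57), Pfkl (0.48), Slc16a1 (0.61) and Gpd1l (0.90) were then higher in KO and Pfkfb2 (-0.94) lower. With S2 and S3 left out instead, S1 was the only WT library and was assumed to vary like the other libraries. In that fit 0 were called, Pgam1 was -0.82, Pgk1 -0.15 and Pfkfb2 0.18, and 13 genes were higher and 17 lower, with a median of -0.03. Which of the 3 stands for the group cannot be read from these data.

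Over all 20 libraries, of 31 genes, 14 had a positive and 17 a negative log2 fold change (45.2% positive, beside 47.2% of all genes). Their median was -0.02 beside -0.01 over all genes, and the largest were Gpd1 (-0.44), Pfkfb1 (-0.43), Pfkfb3 (-0.31), Pgam1 (-0.25) and Aldoc (-0.21, SE 0.417). Gpd1 was -0.14 without S7. Pgam1 was -0.02 without S1 and -0.40 without S2, and Aldoc -0.37 without S1 and -0.09 without TKO6. edgeR called 0 of 31, as it did 0% of all genes, DESeq2 called 0 of 31, beside 0.079% of all genes, and 0 of 31 had an unadjusted p under 0.05, beside 4.93% of all genes. With the Y-linked level as covariate, 8 were higher and 23 lower, with a median of -0.04 and 0 called, and Slc16a3 turned from -0.21 to 0.51. Without the 4 libraries with over 1000 FPKM of the atrial gene Myl7, 0 were called and the median was 0.04.

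The change with genotype was set against labelled sex in a fit of all libraries. Of the 30 genes tested in both labelled sexes, 15 were lower in male KO and higher in female KO, 4 were higher in male KO and lower in female KO, 7 were lower in both and 4 were higher in both. The female change minus the male change had a median of 0.32 beside 0.00398 over all genes. The median was 0.14 without S7, 0.18 without S8 and 0.53 without S1. The difference was -0.58 for Pgam2 (SE 0.209, adjusted p = 0.234), 0.66 for Pgk1 (SE 0.251, adjusted p = 0.248) and -0.82 for Pfkfb2 (SE 0.341, adjusted p = 0.271) by edgeR, 3 genes chosen after their values were seen. Pfkfb2 ran from -1.11 without S1 to -0.51 without S3, and Pgk1 from 0.49 without S2 to 1.06 without S1. The largest fitted values were those of Aldoc (1.196, SE 0.908) and Slc16a3 (0.98, SE 0.693). Aldoc ran from 0.84 without S1 to 1.805 without S2, and Slc16a3 from 0.65 without S7 to 1.685 without S2. edgeR and DESeq2 each called 0 of 31, beside 0% of all genes for edgeR and 0.125% for DESeq2, and 10 had an unadjusted p under 0.05, beside 15.6% of all genes. Without S1, edgeR called 7 of 31, beside 7.45% of all genes: Pgk1, Pgam1, Slc16a1, Gpd1l and Pfkl with a more positive change in libraries labelled female, Pgam2 and Pfkfb2 with a more negative one.

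Among the 12 libraries labelled KO, 6 of the S series and 6 named TKO, with labelled sex as covariate, Pfkfb1 was higher and Pgam1 lower in the TKO libraries. edgeR called 2 of 30 genes, beside 11.2% of all 14540 genes tested, and the median was -0.00405 beside 0.00597 over all genes. Pfkfb1 was 5.36, 2.98 and 3.83 FPKM in S10 to S12 and 1.75, 2.21 and 2.37 FPKM in S4 to S6, against 3.52, 4.31, 6.65, 3.52, 5.84 and 3.88 FPKM in TKO1 to TKO6. The TKO libraries were higher by 0.80 on the log2 scale (SE 0.218, adjusted p = 0.0308, edgeR), and the ranges overlapped. Pgam1 was 32.3, 28.1 and 30.3 FPKM in S10 to S12 and 33.9, 25.3 and 43.5 FPKM in S4 to S6, against 19.7, 19.2, 21.995, 31.4, 24.6 and 16.5 FPKM in TKO1 to TKO6. The TKO libraries were lower, at -0.50 (SE 0.149, adjusted p = 0.0437, edgeR), again with overlap.

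Both calls were lost without single libraries. Pfkfb1 lost its call without S4, S5, S6, TKO2, TKO3 or TKO5 and Pgam1 without S4, S6, S10, TKO1, TKO2, TKO3 or TKO6. Within the libraries labelled male Pfkfb1 was 0.38 (adjusted p = 0.539) and Pgam1 -0.43 (adjusted p = 0.323), and edgeR called 0 of the genes, beside 7 of all 13549 tested. Within those labelled female Pfkfb1 was 1.11 (adjusted p = 0.0201) and Pgam1 -0.55 (adjusted p = 0.111), and of these genes Pfkfb1 alone was called, beside 924 of all 14021 tested. S4 to S6 and TKO1 to TKO4, all labelled female, differ in sex-linked RNA, and that part was not tested. DESeq2 called 4, adding Pfkp (-0.27 by edgeR) and Pkm (0.27 by edgeR), beside 15.1% of all genes. The markers of macrophages summed to 192 to 338 CPM in the KO libraries of the S series and to 149.5 to 183 CPM in the TKO libraries, and the atrial list to 15.5 to 7426 CPM against 9.67 to 17.8 CPM. Red blood cell genes summed to 309 to 1789 CPM against 157 to 409 CPM, with overlap, and the part of these lists was not tested. The white adipocyte list summed to 5.33 to 19.2 CPM in the S and 0.322 to 1.40 CPM in the TKO libraries labelled KO, with no overlap, and its part in these genes and in those of the other lists was not tested.

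The other genes around the pathway gave no calls between genotypes, as did nearly all genes tested. Of 39 listed genes of gluconeogenesis, glycogen, pyruvate and pentose phosphate metabolism in the table, of 27 regulators of glucose uptake and of 20 genes of the hypoxia response outside glycolysis, edgeR called 0 in the male, the female, the 20-library and the genotype by sex comparisons. Among all genes it called 0%, 0.0551%, 0% and 0% in these comparisons, so nothing is read from the lists having 0. Between the series of KO libraries it called 6 of 33 tested in the first list, all lower in TKO, beside the 11.2% called among all genes. They included Pck1 (-3.70, SE 0.552, adjusted p = 0.00156) and G6pc (-3.26, SE 0.574), a cytosolic enzyme of early gluconeogenesis and the enzyme of its last step, Fbp1 (-3.24, SE 0.813), the liver fructose bisphosphatase, and G6pdx (-0.45, SE 0.135), the first enzyme of the pentose phosphate pathway. Pck1 was 0.756 to 4.46 FPKM in the 6 S libraries and 0.0233 to 0.389 FPKM in the 6 TKO libraries, with no overlap. Of the uptake regulators 2 of 27 were called, beside the same 11.2%, both higher in TKO, Pik3ca (0.31), a catalytic subunit of phosphoinositide 3-kinase, and Irs2 (0.89), an insulin receptor substrate. Of the hypoxia list 5 of 20 were called, beside 11.2% of all genes. Arnt (0.57), the partner of the hypoxia-inducible factors, and P4ha2 (0.39) were higher in TKO, and Adm (-0.52), Ankrd37 (-1.16) and Egln3 (-0.49) were lower.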

How the data were processed

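Poly-A RNA of 20 hearts had been sequenced as 150 bp pairs (NEBNext Ultra kit, not stated to be stranded, Illumina HiSeq). The authors deposited 1 table with whole-number counts per Ensembl gene and their FPKM, which equalled the count per gene length and library total. The submitters' processing notes name HISAT2, HTSeq 0.6.1p2, DESeq2 1.26.0 and GRCm38, with no settings. Samples were grouped by labels alone. The genes and lists were chosen with earlier results of these data known.

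From the counts, edgeR 4.0.16 (TMM, quasi-likelihood, Benjamini-Hochberg) tested genes that reached 10 counts in 3 or more libraries. KO was set against WT within each labelled sex and over all libraries, with the library series as covariate, then genotype by labelled sex, and S against TKO libraries among KO. Fits were tested on simulated data. DESeq2 1.42.0, other filters, normalizations and covariates, and each library left out were alternatives. Fits without Myl7-rich libraries, without S2 and S3, and of WT/TKO libraries alone were added after the data were seen. Named genes were the called ones (up to 12), the 5 largest changes per comparison of KO with WT, the highest form per step and up to 5 called genes per other list, and further genes were named for their library pattern after their values were seen. Depth was 12540002 to 20038593 counts per library. Libraries were compared pairwise within groups, and all 44 pairs differed by more than counting noise. The study's text describes 3 mice in each group, fewer than the 5, 5 and 7 libraries of the other groups than female WT, and nothing states separate animals for all 20 libraries, so n counts libraries and p-values measure the spread between libraries. Lengths and coordinates are from GENCODE mouse release 21 (GRCm38). Without strand, exons shared with an opposite gene (Pfkm with Senp1, Pfkfb1 with Apex2, Tpi1 with Spsb2, Gapdh with Iffo1, Aldoa with Fam57b, Pfkp with Pitrm1, Pfkfb2 with Yod1, Hk1 with Hk1os, Gpd1 with Gm16537, Slc2a1 with Gm12868, Gpi1 with Gm26762) are uncertain. Near-identical copies such as Pgk1-rs7 and Pgam1-ps2 held at most 25 and 31 counts. R 4.3.3, Python 3.11.15 and matplotlib 3.10.9 were used.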

Additional observations from a re-analysis of the deposited data

Results flagged for a closer look

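Of 93 sets of libraries examined (31 genes in each of the 3 groups of 4 to 10 libraries), 7 held a library far from the rest, where chance alone gives about 1 in 20. In libraries labelled male WT, S7 had 30.9 FPKM of Hk1, against 11.9 to 16.7 FPKM in the rest, and 75.5 FPKM of Gpd1, against 12.6 to 21.8 FPKM. S8, of the same group, had 9.29 FPKM of Bpgm, against 5.09 to 5.65 FPKM. In libraries labelled male KO, S11 had 9.97 FPKM of Slc2a1, against 5.19 to 6.51 FPKM, and S10 had 528 FPKM of Gapdh, against 472 to 482 FPKM. In libraries labelled female KO, S6 had 268 FPKM of Tpi1, against 216 to 234 FPKM, and 253 FPKM of Ldha, against 196 to 220.0 FPKM. Libraries labelled female WT, a group of 3, were not examined in this way.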

How the results depend on the processing

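Of 248 counts and medians over the 31 genes recomputed under an alternative, 216 stayed within 1.5 times (counts) or within the spread of libraries (medians). In libraries labelled male, 0 genes were called under any alternative, and the median stayed between -0.22 and -0.07 with each library left out. Among all genes, 12 of 14481 were called with DESeq2 and 59 of 27220 with no filter. Past the thresholds of the study were 0 genes, 1 with DESeq2, with no filter, in 1 fit of all 20 libraries or with the Y-linked level as covariate, and 2 in the S libraries alone, and 0 to 2 with each library left out (2 without WT2). Among all genes, 303 of 14481 passed them, 379 of 14120 in the S libraries alone and 484 of 14389 without WT2. In libraries labelled female, 1 gene was called with DESeq2 and 2 with no filter, and 0 to 8 with each library left out (8 without S1). Calls among all genes moved too, from 8 of 14511 to 383 of 14511 with DESeq2. They were 1110 of 27319 with no filter and 2409 of 14358 without S1. Past the thresholds of the study were 2 genes, 0 with no series covariate and 1 in 1 fit of all 20 libraries, and 1 to 7 with each library left out (7 without S1, 1 without S3 or S4). Among all genes, 1450 of 14511 passed them, and 1449 with no series covariate. It was 1110 of 15187 in 1 fit of all 20 libraries and 2954 of 14358 without S1. The median was -0.031 with S2 and S3 left out, which leaves 1 WT library assumed to vary like the others. The genotype by sex count was 0 to 7 with each library left out, and its median ran from 0.14 without S7 and 0.18 without S8 to 0.53 without S1. Without S1, 1127 of all 15120 genes were called, beside 0 of 15187 in the main fit. Between the series of KO libraries, 2 genes were called, 4 with DESeq2, 0 with male labels alone and 1 with female labels alone, and 0 to 3 with each library left out (3 without TKO4, 0 without S4, S6, TKO2 or TKO3, 1 without S5, S10, TKO1 or TKO5). Among all genes, 1622 of 14540 were called, 2190 with DESeq2 and 1740 of 14411 without TKO4. With male labels alone 7 of 13549 were called, and with female labels alone 924 of 14021. The causes were not tested beyond the fewer libraries of these fits. Without division by gene length, the median share was 63.3% for Hk2, 75.4% for Pfkm, 67.8% for Ldhb, 88.8% for Eno3, 92.4% for Pgam2, 13.5% for Pfkl, 9.89% for Pfkp and 15.3% for Pfkfb1, and Gpd1l, at 52.75%, passed Gpd1, at 47.25%. No paired analysis was possible because the labels give no replicate numbers shared between the compared groups: the numbers used here only name libraries in accession order.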
